A study of Homo sapiens with 4 samples.

Results

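Mitochondrial ribosomal proteins are the protein parts of the ribosome inside mitochondria, and all of them are encoded in the nucleus. Rows of the deposited expression table were taken as members when the gene symbol was MRPL or MRPS followed by a number and, in a few cases, a letter, which gave 75 of 12033 genes. By symbol and known position, 49 members belong to the large subunit and 25 to the small subunit, and the remaining one, MRPS36, is now known as a subunit of the 2-oxoglutarate dehydrogenase complex. MRPS30 and MRPS18A carry small-subunit symbols but sit in the large subunit and were counted there. MRPL45, MRPS18B and MRPL58 were not analysed here under those symbols. The members lie on 21 chromosomes, with 8 each on chromosomes 1 and 2 and 7 on chromosome 11.

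RNA-seq was carried out on BJ cells, hTERT-immortalized human fibroblasts with an inducible RASG12V oncogene, after 14 days of 4-OHT (4-hydroxytamoxifen, 100 nM), which switches the oncogene on. All cells therefore carried the induced oncogene, and they differed in the lentiviral CRISPR vector they had received. sgRNA.69 and sgRNA.71 both target the AP-1 site of the enhancer Enh.AP1.OIS1, sgRNA-FOXF1 targets the gene of the forkhead transcription factor FOXF1, and sgRNA-NT is a non-targeting control. The comparison asks how expression in each targeted population differs from that in control cells under oncogenic stress. Each guide is represented by 1 library of a transduced population, so a difference between single libraries has no replicate error, and only the enhancer guides give a spread (n = 2 guides).

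Expression was given as RPKM, reads per kilobase of transcript scaled to library size, quantile-normalized over the 4 libraries with a floor of 1 RPKM. Depth is unknown, as read counts were not used here. Log2 ratios to sgRNA-NT were computed for 7596 genes, 70 of them members, whose mean level reached 2 RPKM. A gene was called higher or lower where it differed by 1.5-fold or more. The 3 targeted libraries share the sgRNA-NT library, so a deviation of that library would enter each ratio alike. FOXF1 mRNA was at 11.1, 7.8 and 25 RPKM with sgRNA.69, sgRNA.71 and sgRNA-FOXF1, against 29.6 RPKM with sgRNA-NT. HRAS was at 446.4, 427.4 and 707.6 RPKM in the same order, against 829.4 RPKM with sgRNA-NT, and its part in the members' values was not tested. Of 11 fibroblast markers 10 were above the floor in at least 1 library, and FAP was listed at the floor in all 4 libraries. DCN was at 1.4, 2.7 and 3.4 RPKM with sgRNA.69, sgRNA.71 and sgRNA-FOXF1, and at the floor of 1 RPKM with sgRNA-NT. The summed level of the 11 markers was 5230.8, 5401.8 and 5172.2 RPKM with sgRNA.69, sgRNA.71 and sgRNA-FOXF1, against 3705.8 RPKM with sgRNA-NT. VIM and S100A4 made up most of this sum in each library. Single markers lay in different directions: FN1 was at 53.9, 33.1 and 71.6 RPKM in the same order, against 151.4 RPKM with sgRNA-NT, COL1A1 at 53.7, 42.5 and 115.6 RPKM, against 120.6 RPKM, and LUM at 8.3, 7.9 and 13.1 RPKM, against 2.3 RPKM. The part of these markers in the members' values was not tested. Markers of epithelial, endothelial and leukocyte cells were not analysed here. In bulk RNA, fewer cells of a type and less RNA per cell cannot be told apart.

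Mitochondrial ribosomes translate the few mRNAs of the mitochondrial genome, all of which encode subunits of the respiratory chain and ATP synthase. Their proteins are made in the cytosol and imported, and many have counterparts in the bacterial ribosome whereas others are found only in mitochondria. Promoters of such nuclear genes for mitochondrial proteins are known to hold sites for the factors NRF1, YY1 and the ETS family.

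Promoter windows from RefSeq (GRCh38.p14, 250 bases before to 50 bases after the annotated start) were matched by symbol for 66 of the 75 members, and 4 short motifs were searched in them on both strands. The ETS core CCGGAAG was present in 28 of the 66 windows (42.4%), compared with 14.2% of 15842 protein-coding promoters of the same length. The YY1 core AAGATGG was present in 21 windows (31.8%, against 6.40%), the NRF1 core GCGCATG in 6 (9.09%, against 5.87%) and the CCAAT box in 20 (30.3%, against 36.4%). Among promoters of the genes compared in these libraries, the ETS core was found in 21.5%, the YY1 core in 8.90%, the NRF1 core in 8.08% and the CCAAT box in 37.1%. No member had matches to different motifs that overlapped each other. At least 1 of the 4 motifs was found in 50 member windows (75.8%, against 51.9% of all). Such a match is a description of the letters and not of binding. MRPL13 and MRPL23, which had the highest mean log2 ratios to the control library among compared members, were not among the 66 windows. Of the compared members with a motif in the 150 bases before the start, the 3 with the highest and the 3 with the lowest mean log2 ratio were chosen. Their windows are printed over these 150 bases, to show which motifs stand before members towards either end of the results. Each is written 5′ to 3′ in the direction of transcription, with the matches, on either strand, in capitals. MRPL17 (chr11:6683341-6683490, minus strand) holds 3 NRF1 matches, 2 of which overlap, MRPL48 (chr11:73787724-73787873, plus strand) holds an ETS match, and MRPL22 (chr5:154940923-154941072, plus strand) holds an NRF1 match. MRPS10 (chr6:42217862-42218011, minus strand) holds an ETS match, MRPS9 (chr2:105037919-105038068, plus strand) a CCAAT box, and MRPL36 (chr5:1799838-1799987, minus strand) a YY1 match.
MRPL17: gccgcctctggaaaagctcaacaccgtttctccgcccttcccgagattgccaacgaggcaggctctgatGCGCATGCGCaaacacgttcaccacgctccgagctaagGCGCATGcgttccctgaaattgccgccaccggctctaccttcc
MRPL48: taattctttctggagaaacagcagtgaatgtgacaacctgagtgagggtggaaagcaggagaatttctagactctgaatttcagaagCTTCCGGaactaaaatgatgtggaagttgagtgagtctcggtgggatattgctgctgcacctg
MRPL22: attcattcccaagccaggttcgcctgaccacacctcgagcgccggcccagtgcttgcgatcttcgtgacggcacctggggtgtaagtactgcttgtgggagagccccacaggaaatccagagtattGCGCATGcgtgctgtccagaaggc
MRPS10: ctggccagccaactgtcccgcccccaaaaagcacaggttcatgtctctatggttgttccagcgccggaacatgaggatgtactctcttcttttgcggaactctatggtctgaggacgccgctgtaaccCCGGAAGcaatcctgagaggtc
MRPS9: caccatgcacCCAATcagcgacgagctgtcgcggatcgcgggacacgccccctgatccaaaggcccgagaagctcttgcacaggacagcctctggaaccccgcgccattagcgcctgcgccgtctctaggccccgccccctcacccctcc
MRPL36: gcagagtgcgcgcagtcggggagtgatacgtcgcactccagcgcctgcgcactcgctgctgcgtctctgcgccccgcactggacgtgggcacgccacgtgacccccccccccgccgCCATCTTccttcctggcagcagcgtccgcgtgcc

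The ETS core occurred before members at both ends of the order of log2 ratios, as MRPL48 and MRPS10 show. The 26 compared members with an ETS core had median log2 ratios of 0.31, 0.44 and 0.20 with sgRNA.69, sgRNA.71 and sgRNA-FOXF1, and the 35 without it had 0.31, 0.28 and 0.22. For the YY1 core the medians were 0.31, 0.33 and 0.20 with it (17 members) and 0.31, 0.39 and 0.20 without (44 members). The 6 compared members with an NRF1 core, MRPL17 and MRPL22 among them, had medians of 0.47, 0.62 and 0.40, and the 55 without it had 0.31, 0.37 and 0.20. These medians describe the members and were not tested.

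Summed over the 75 members, expression was 1956.5, 2058.9 and 1827.5 RPKM with sgRNA.69, sgRNA.71 and sgRNA-FOXF1, against 1558.1 RPKM with sgRNA-NT. The sums were thus 1.26, 1.32 and 1.17 times that of sgRNA-NT, and they made up 0.510%, 0.537% and 0.476% of all RPKM, against 0.406% with sgRNA-NT. The median member was at 20.4, 21.6 and 17.6 RPKM, against 15.9 RPKM with sgRNA-NT. Most members were well expressed in control cells, where 5 were at 50 RPKM or more, 42 between 10 and 50, 21 between 2 and 10, and 7 below 2. The median of the 70 compared members with sgRNA-NT was 18.9 RPKM, and that of all compared genes was 8.3 RPKM. The order of the members by level changed little, with Spearman correlations to sgRNA-NT of 0.98, 0.97 and 0.98 over 70 genes, which share the normalization.

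**Figure D1:**
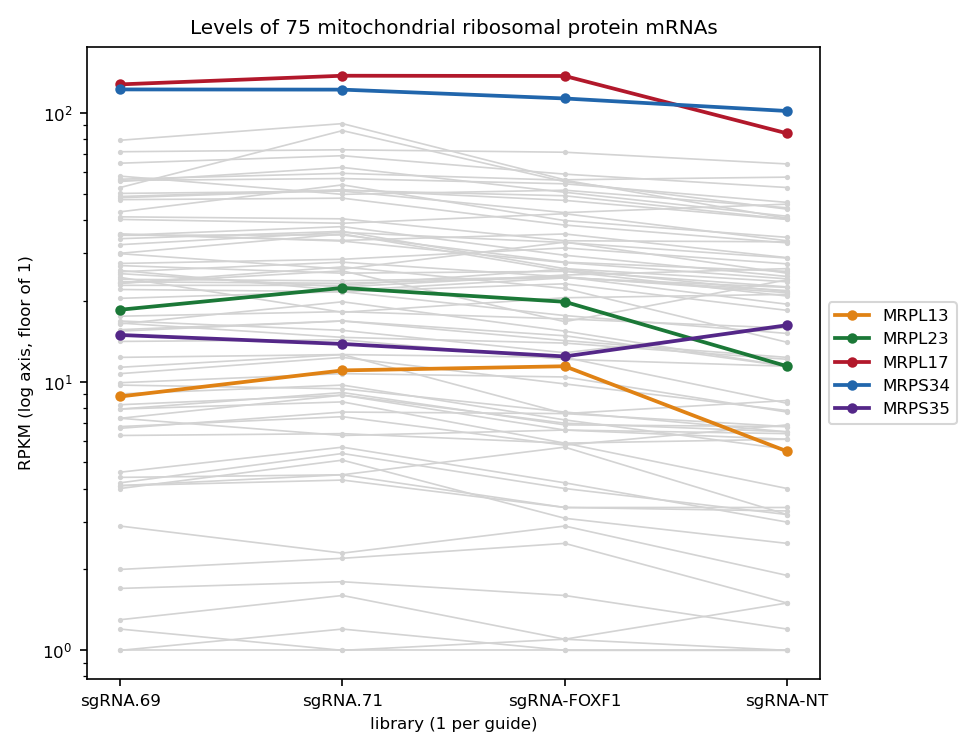
RPKM on a log axis of the 75 members in each of the 4 libraries, 1 line per gene, with 5 named members in colour. MRPL17 and MRPS34 are highest at 83.8 to 137.3 RPKM, MRPL13 and MRPL23 are lowest with sgRNA-NT, and MRPS35 is highest with sgRNA-NT.

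At the top of the range, MRPS34, a protein of the small subunit found only in mitochondria, was at 122.1, 121.9 and 113.0 RPKM with sgRNA.69, sgRNA.71 and sgRNA-FOXF1, against 101.5 RPKM with sgRNA-NT. MRPL17, which lines the tunnel through which the new protein leaves, was at 127.5, 137.3 and 137.0 RPKM, against 83.8 RPKM. With sgRNA-NT, MRPS34 was the most abundant member, while MRPL17 was the most abundant in each targeted library. MRPL14, which lies at the face that meets the small subunit, was at 71.6, 72.8 and 71.3 RPKM, against 64.5 RPKM with sgRNA-NT. MRPL51, a large-subunit protein found only in mitochondria, was at 79.0, 91.1 and 56.3 RPKM, against 57.6 RPKM. At the low end, MRPS17 was at 2.9, 2.3 and 2.9 RPKM, against 1.9 RPKM with sgRNA-NT, and MRPS28 at 2.0, 2.2 and 2.5 RPKM, against 1.5 RPKM. Both are small-subunit proteins with bacterial counterparts, their values lie so close to the floor that a ratio is coarse, and they share 29.4% and 56.2% of their exon bases with other genes on their strand.

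The 5 members with a mean below 2 RPKM were not compared. MRPL53, a stalk protein, was at 1.2, 1.0 and 1.1 RPKM with sgRNA.69, sgRNA.71 and sgRNA-FOXF1, against 1.5 RPKM with sgRNA-NT. MRPL46 was at 1.3, 1.6 and 1.1 RPKM, against 1.0 RPKM, and MRPL38, another protein of the central protuberance, was listed at the floor of 1.0 in all 4 libraries. MRPS24 was at the floor except for 1.2 RPKM with sgRNA.71, and MRPL42 was at 1.7, 1.8 and 1.6 RPKM, against 1.2 RPKM with sgRNA-NT. In GENCODE v44 lifted to GRCh37, which is newer than the v25 annotation named for these values, 4 of these 5 genes share most of their exon bases with another gene on the same strand. The share was 99.2% for MRPL53 (with CCDC142), 94.3% for MRPL38, 90.9% for MRPS24 (with the read-through gene URGCP-MRPS24) and 73.4% for MRPL46, while MRPL42 shared 1.8%. Among all 75 members, 5 shared at least 70%, and the fifth, MRPS5 with 97.1%, was at 8.2, 8.9 and 7.0 RPKM, against 6.5 RPKM with sgRNA-NT. MRPL12, which shares 69.5%, was at 44.3 RPKM or more in every library. How reads that fall on more than 1 gene were counted bears on these levels, and its part was not tested. In all, 13 members shared at least 10% of their exon bases on the same strand, 9 of them among the 70 compared, and 22 overlapped a gene on the opposite strand.

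**Figure D2:**
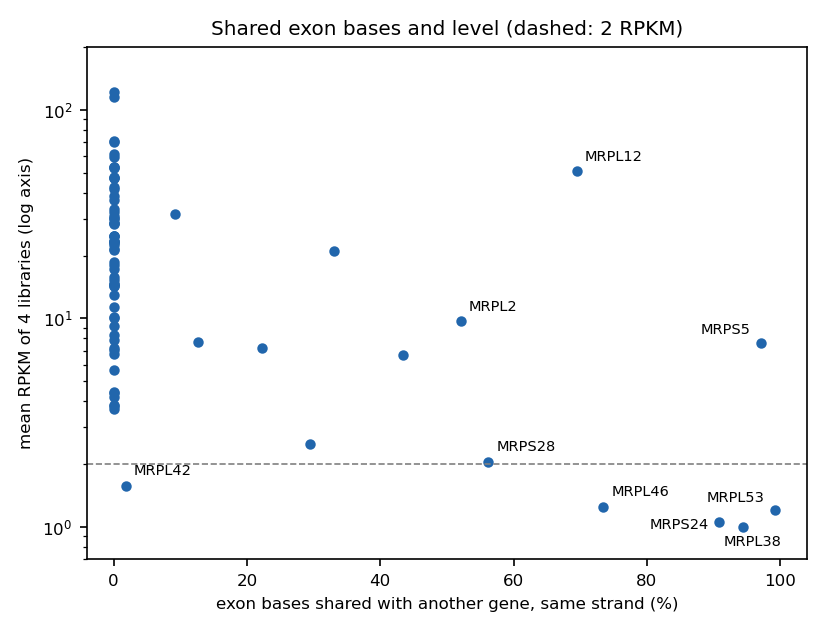
Mean RPKM over the 4 libraries (log axis) of each of the 75 members against the share of its exon bases that lie in another gene on the same strand. MRPL53, MRPL38, MRPS24 and MRPL46 lie at 73.4% to 99.2% and below the dashed line at 2 RPKM, whereas MRPS5 and MRPL12 lie above it with 97.1% and 69.5%.

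Members were mostly higher in the targeted libraries than with sgRNA-NT, by a modest amount. The median log2 ratio of the 70 compared members was 0.32 with sgRNA.69, 0.41 with sgRNA.71 and 0.21 with sgRNA-FOXF1, beside 0.07, 0.08 and 0.05 for all compared genes. The ratio was above 0 for 65, 64 and 59 of the 70 members, and above 0 in all 3 libraries for 56, which compares with 55.0%, 55.1%, 53.9% and 40.3% of all compared genes. A 1.5-fold higher level was reached by 9 members with sgRNA.69, beside 8.18% of all genes, by 19 with sgRNA.71, beside 14.0%, and by 7 with sgRNA-FOXF1, beside 11.6%. No member was 1.5-fold lower in any targeted library, whereas 9.93%, 14.7% and 13.2% of all genes were. As shares of the 70 members, the higher ones made up 12.9%, 27.1% and 10.0%, so that with sgRNA-FOXF1 the share was near that of all genes. The SD of the members' log2 ratios was 0.20, 0.30 and 0.27, beside 0.48, 0.63 and 0.58 for all genes.

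**Figure D3:**
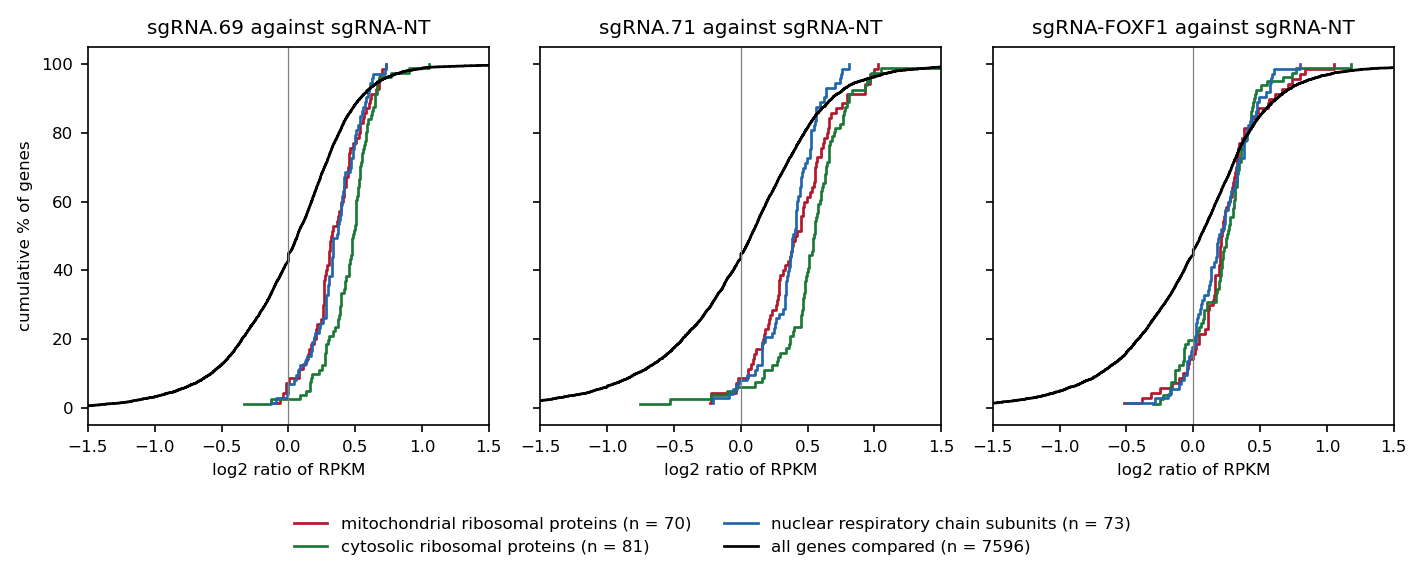
Cumulative share of genes (%) by log2 ratio of RPKM to sgRNA-NT, with 1 panel per targeted library, for the 70 members, 81 cytosolic ribosomal protein genes, 73 nuclear genes of the respiratory chain and all 7596 genes. The coloured curves are steeper than the black curve and lie to its right at the median, with members at 0.32, 0.41 and 0.21.

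Taking both enhancer guides as a group of 2 against sgRNA-NT, limma called 0 of the 70 members and 0 of all 7596 genes at an adjusted p below 0.05 (Benjamini-Hochberg, smallest adjusted p 0.205). The lone sgRNA-NT library was assumed to vary like the guides, and the fit had 1 residual degree of freedom. At an unadjusted p below 0.05, 24 members were higher and 0 lower, beside 13.7% of all genes higher and 10.6% lower. MRPL22 had the smallest limma p among members, with a log2 difference of 0.67 (SE 0.10, unadjusted p 0.0140, adjusted p 0.205), and MRPS33 followed with 0.74 (SE 0.12). No difference given here for a member passed a test.

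The members with the highest ratios were mostly large-subunit proteins with bacterial counterparts. MRPL13 (ENSG00000172172, chromosome 8) was at 8.8, 11.0 and 11.4 RPKM with sgRNA.69, sgRNA.71 and sgRNA-FOXF1, against 5.5 RPKM with sgRNA-NT, which gives log2 ratios of 0.68, 1.0 and 1.05. MRPL23 (ENSG00000214026, chromosome 11, 1968508 to 2005752 in GRCh37) was at 18.5, 22.3 and 19.8 RPKM, against 11.4 RPKM, with log2 ratios of 0.70, 0.97 and 0.80. MRPL11 (ENSG00000174547), part of the base of the stalk that receives translation factors, was at 23.2, 26.7 and 22.2 RPKM, against 14.0 RPKM. Together with MRPL17, these were the 4 members at least 1.5-fold higher in all 3 libraries, beside 4.98% of all genes, and the remaining 3 past that size with sgRNA-FOXF1 were MRPL50, MRPS28 and MRPS17. MRPL1, of the mobile stalk beside the exit site of tRNA, was at 4.6, 5.7 and 4.2 RPKM, against 3.0 RPKM with sgRNA-NT. MRPL48, of the central protuberance, was at 4.0, 5.1 and 3.1 RPKM, against 2.5 RPKM. MRPL22, of the exit tunnel, was at 6.3, 6.4 and 5.9 RPKM, against 4.0 RPKM. The small-subunit protein MRPS33, found only in mitochondria, was at 9.0, 9.7 and 7.2 RPKM, against 5.6 RPKM with sgRNA-NT. These last 4 were past 1.5-fold with both enhancer guides and below it with sgRNA-FOXF1. The 8 members with the highest mean log2 ratio all had their lowest value in the sgRNA-NT library. Their choice by ratios to that library made this nearly certain, so it is not a separate result. With ties included, 57 of the 70 compared members were lowest with sgRNA-NT, beside 42.6% of all compared genes.

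At the other end, the ratios of a few members were near or below 0. MRPS35, a small-subunit protein found only in mitochondria, was at 14.9, 13.8 and 12.4 RPKM with sgRNA.69, sgRNA.71 and sgRNA-FOXF1, against 16.2 RPKM with sgRNA-NT, and its log2 ratios were -0.12, -0.23 and -0.39. MRPL10, which anchors the stalk, was at 25.2, 22.5 and 24.9 RPKM, against 26.3 RPKM. These were the only 2 of the 70 members whose highest value was with sgRNA-NT. Of all 7596 compared genes, 2215 were below sgRNA-NT in all 3 targeted libraries. MRPS10 was at 23.2, 25.8 and 16.7 RPKM, against 23.9 RPKM with sgRNA-NT, so that it was low only with sgRNA-FOXF1. Like MRPS9 and MRPS6, it has a counterpart in the small subunit of bacteria. MRPL44, which has a fold related to RNase III, was at 16.8, 15.5 and 12.8 RPKM, against 15.9 RPKM, and MRPS9 was at 6.8, 7.4 and 5.8 RPKM, against 6.9 RPKM. Both were likewise lowest with sgRNA-FOXF1. MRPS6 was at 24.4, 18.1 and 20.5 RPKM, against 21.1 RPKM with sgRNA-NT, and the enhancer guides lay on either side of sgRNA-NT. MRPL36 was at 50.1, 51.1 and 42.5 RPKM, against 45.7 RPKM, and MRPS25 at 7.3, 6.3 and 6.6 RPKM, against 6.4 RPKM. No value of these 8 members was 1.5-fold away from that with sgRNA-NT, and MRPS6 and MRPS25 share 33.1% and 43.4% of their exon bases with other genes on their strand.

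**Figure D4:**
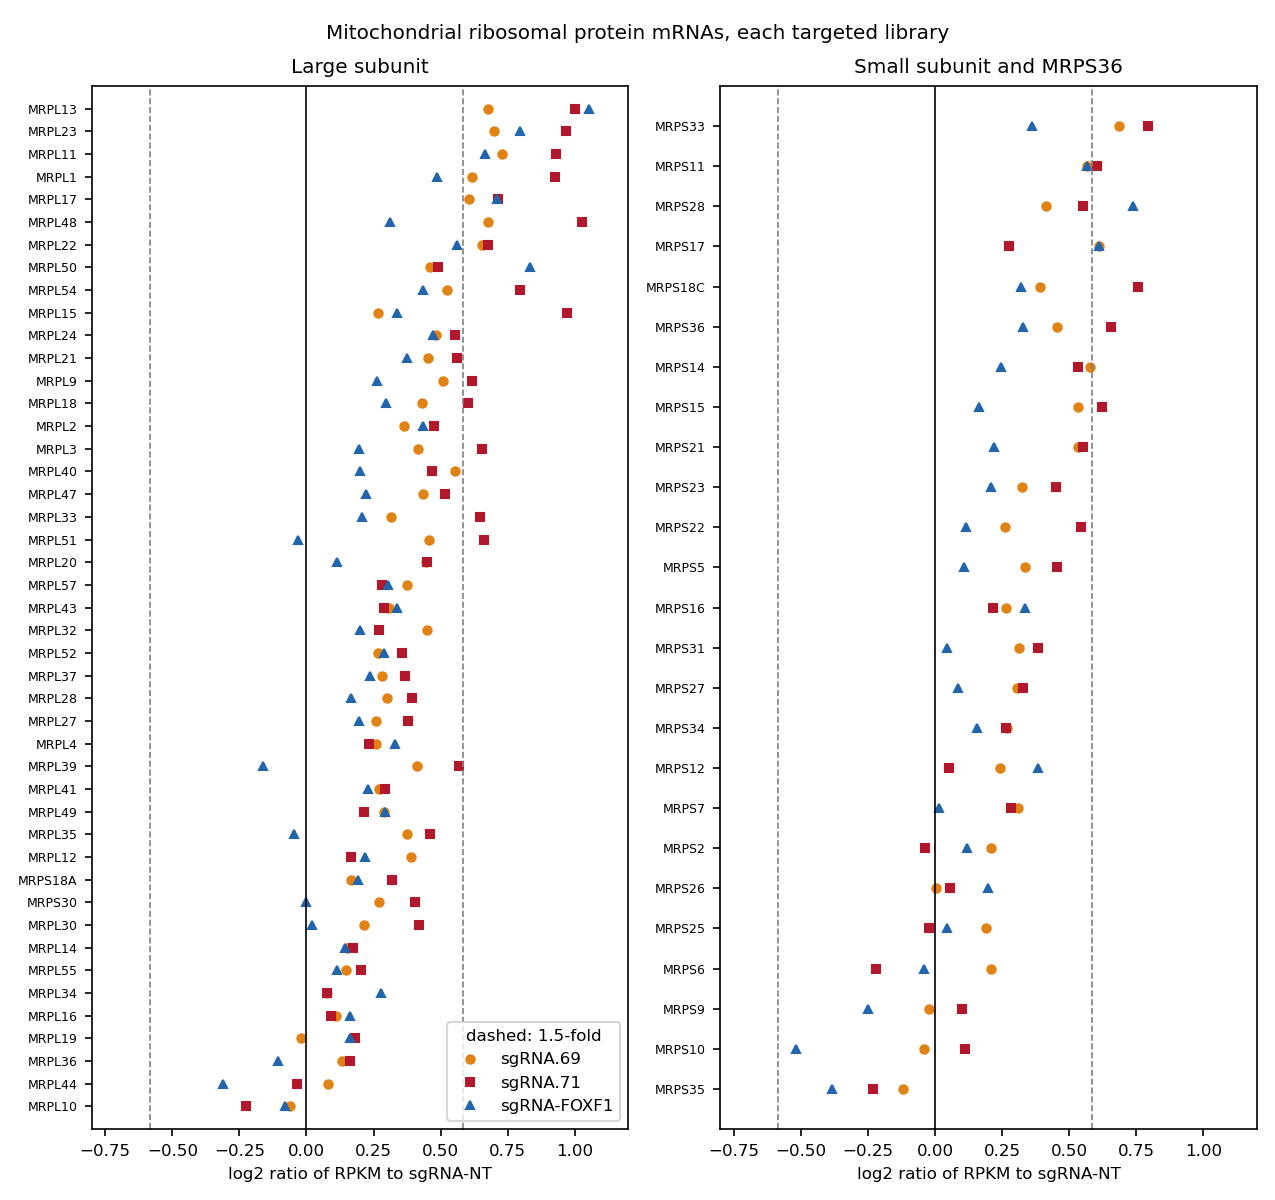
Log2 ratio of RPKM to sgRNA-NT of each of the 70 compared members in the 3 targeted libraries, ordered by the mean of the 3, with the large subunit on the left and the small subunit with MRPS36 on the right. MRPL13 stands at 0.68 to 1.05 and MRPS35 at -0.39 to -0.12, and no point reaches the left dashed line, 1.5-fold lower.

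Both subunits lay above sgRNA-NT. The 45 compared large-subunit members had median log2 ratios of 0.37, 0.45 and 0.23 with sgRNA.69, sgRNA.71 and sgRNA-FOXF1, and 7, 14 and 5 of them (15.6%, 31.1% and 11.1%) were 1.5-fold higher. The 24 compared small-subunit members had medians of 0.31, 0.31 and 0.16, with 2, 4 and 2 higher (8.33%, 16.7% and 8.33%). Among all compared genes the shares were 8.18%, 14.0% and 11.6%. All 4 members past 1.5-fold in every targeted library were in the large subunit, but the subunits overlapped over most of their range, and their difference was not tested. Within the large subunit, the 30 proteins with bacterial counterparts had medians of 0.38, 0.47 and 0.22, and the 14 compared proteins found only in mitochondria had 0.34, 0.39 and 0.26. Within the small subunit, 14 proteins with bacterial counterparts had 0.32, 0.28 and 0.19, and 9 found only in mitochondria had 0.27, 0.33 and 0.11. Within either subunit, the medians by origin lay closer to each other than to those of all genes with sgRNA.69 and sgRNA.71.

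Of the functional sites, the exit tunnel stood highest in ratios not corrected for transcript length. Its 6 compared members had medians of 0.54, 0.62 and 0.52 with sgRNA.69, sgRNA.71 and sgRNA-FOXF1. Each of the 6 was above sgRNA-NT in all 3 libraries, as were 80% of all 70 compared members and 40.3% of all genes. Besides MRPL17, MRPL22 and MRPL23, MRPL24 was at 56.6, 59.5 and 56.1 RPKM, against 40.5 RPKM with sgRNA-NT. MRPL47 was at 20.4, 21.6 and 17.6 RPKM, against 15.1 RPKM, and MRPL4 at 22.0, 21.6 and 23.1 RPKM, against 18.4 RPKM. The spread inside the group was thus from a log2 ratio of 0.22 to 0.97, and with 6 genes chosen by function no test was made. Against the median of genes of like length, MRPL22, MRPL17 and MRPL23 had mean log2 differences of 0.56, 0.53 and 0.45. MRPL24, MRPL47 and MRPL4 had 0.13, 0.07 and -0.05.

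The stalk, which brings translation factors to the ribosome, was uneven. MRPL12, the acidic protein at its tip, was at 58.1, 49.7 and 51.5 RPKM with sgRNA.69, sgRNA.71 and sgRNA-FOXF1, against 44.3 RPKM with sgRNA-NT, between the high ratios of MRPL11 and the ratios below 0 of MRPL10. In the central protuberance, which touches the small subunit and the tRNAs, the 5 compared members had medians of 0.43, 0.47 and 0.29. All 5 were above sgRNA-NT in each library, as were 80% of all compared members and 40.3% of all genes. MRPL18 was at 55.5, 62.6 and 50.6 RPKM, against 41.2 RPKM with sgRNA-NT. MRPL40 was at 35.4, 33.3 and 27.7 RPKM, against 24.1 RPKM. MRPL52 and MRPL27 differed less, at 48.3, 51.4 and 49.1 RPKM, against 40.2 RPKM, and 25.6, 27.8 and 24.5 RPKM, against 21.4 RPKM with sgRNA-NT.

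Further members of known place varied between libraries. MRPS12, whose bacterial counterpart helps to read the codon, was at 29.9, 26.2 and 33.0 RPKM with sgRNA.69, sgRNA.71 and sgRNA-FOXF1, against 25.3 RPKM with sgRNA-NT. MRPS18A and MRPS18C, relatives of the bacterial protein S18, were at 32.3, 35.9 and 32.9 RPKM, against 28.8 RPKM, and at 4.2, 5.4 and 4.0 RPKM, against 3.2 RPKM. MRPS30 was at 4.1, 4.5 and 3.4 RPKM, against 3.4 RPKM with sgRNA-NT, equal in the sgRNA-FOXF1 and control libraries. MRPS36, the member outside the ribosome, was at 10.7, 12.3 and 9.8 RPKM, against 7.8 RPKM, and so differed in the same direction as the ribosomal members.

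Differences between the enhancer guides were small for the members. sgRNA.71 was above sgRNA.69 for 49 members and below for 20, beside 47.3% of all genes above and 49.4% below, with a median log2 difference of 0.08 and an SD of 0.18, against 0.29 for all genes. The highest of the 4 values was with sgRNA.71 for 45 of the 70 members. The share of all genes is not given here, so this count describes the members only. Over all genes, too, the SD of the log2 ratios to sgRNA-NT was largest with sgRNA.71, at 0.63, against 0.48 with sgRNA.69 and 0.58 with sgRNA-FOXF1. MRPL15, a large-subunit protein with a bacterial counterpart, was the only member to differ by 1.5-fold between the guides, beside 2.41% of all genes higher and 2.84% lower with sgRNA.71, and was at 85.8 RPKM with sgRNA.71, against 52.7 RPKM with sgRNA.69. It was named after its values were seen. It was at 55.4 RPKM with sgRNA-FOXF1 and 43.8 RPKM with sgRNA-NT. Its log2 ratio to sgRNA-NT was thus 0.97 with sgRNA.71 alone, compared with 0.27 and 0.34 in the other libraries.

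sgRNA-FOXF1 gave lower values than the enhancer guides for most members. Against the mean of the guides its median log2 difference was -0.16, beside -0.03 for all genes, with 53 members below and 17 above, beside 53.1% of all genes below and 46.7% above. The cytosolic ribosomal proteins had a median of -0.26, with 75 below and 6 above. For the nuclear genes of the respiratory chain it was -0.14, with 58 below and 15 above, so that the direction was not particular to the members. Only 2 members were 1.5-fold below the guides, beside 3.54% of all genes, and none was 1.5-fold above, beside 5.86%. MRPL39, a large-subunit protein found only in mitochondria, was at 7.6 RPKM with sgRNA-FOXF1, against 11.3 and 12.6 RPKM with sgRNA.69 and sgRNA.71, and at 8.5 RPKM with sgRNA-NT, and MRPL51 was the other. Furthest above the guides was MRPL50, another such protein, at 5.7 RPKM with sgRNA-FOXF1, against 4.4 and 4.5 RPKM with the guides and 3.2 RPKM with sgRNA-NT, followed by MRPS28 and MRPS12. limma called no member and no other gene for this difference, in which sgRNA-FOXF1 is a single library. The difference moved with base composition. Over 7566 genes its Spearman correlation with the GC content of the transcript was 0.60, and over the 70 members 0.36, without independence of the genes. When the median of genes of like GC content was subtracted, the members' median was -0.07, with 51 below and 19 above.

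Transcript length moved with the ratios of all genes, and members are short. The median length was 1242 nt for members and 2902 nt for all compared genes, with a GC content of 48.0% and 50.6%. Across 7566 genes, the Spearman correlation of length with the log2 ratio was -0.50, -0.44 and -0.45 with sgRNA.69, sgRNA.71 and sgRNA-FOXF1, so that shorter transcripts were higher in every targeted library. Within the 70 members it was -0.01, -0.01 and -0.03. After subtraction of the median of genes in the same of 20 length bins, the members' medians were 0.07, 0.12 and -0.03, with 2, 8 and 2 members 1.5-fold higher and 0, 1 and 2 lower. The share of all genes past 1.5-fold after the same subtraction is not given here, so these counts describe the members only. The ratios of 46, 45 and 32 members then lay above their bin and those of 24, 25 and 38 below. Most of the members' displacement from all genes was thus also present in other genes of their length, and what the length relation itself rests on was not tested.

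Among genes of at most 1375 nt, the 38 members had median log2 ratios of 0.38, 0.46 and 0.22 and the 1098 other genes 0.36, 0.40 and 0.31. At 1.5-fold, 7.89%, 26.3% and 7.89% of these members were higher, against 20.7%, 30.5% and 21.1% of the other short genes. Of the members high for their length by the mean of the 3 targeted libraries, the top pair had long transcripts. MRPS33, with a transcript of 4210 nt, was above its length bin by 0.78, 0.90 and 0.48 on the log2 scale with sgRNA.69, sgRNA.71 and sgRNA-FOXF1. MRPL50, at 3336 nt, was above its bin by 0.46, 0.51 and 0.83. MRPL13 came next with a transcript of 1260 nt, close to the members' median of 1242 nt, and was above its bin by 0.36, 0.64 and 0.77. By the same mean, -0.48, MRPS35 was furthest below its bin, with -0.32, -0.48 and -0.64.

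**Figure D5:**
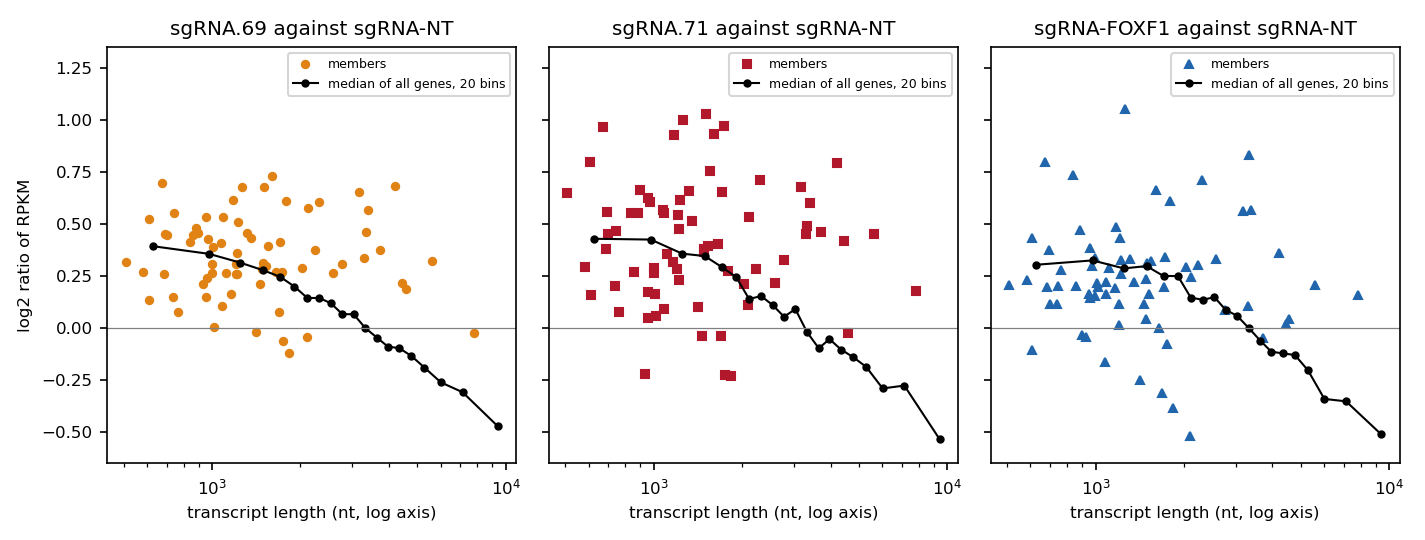
Log2 ratio of RPKM to sgRNA-NT against transcript length (nt, log axis) in the 3 targeted libraries, with points for the 70 members and a black line for the median of all genes in 20 length bins. The line runs from 0.39, 0.43 and 0.30 in the shortest bin to -0.47, -0.53 and -0.51 in the longest, and members scatter on both sides of it.

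Other genes of the mitochondrial translation machinery were set beside the members. Among all compared genes, 8.18%, 14.0% and 11.6% were 1.5-fold higher with sgRNA.69, sgRNA.71 and sgRNA-FOXF1, and 9.93%, 14.7% and 13.2% were lower. The 7 compared ribosomal proteins or partners under other symbols had medians of 0.22, 0.40 and 0.17 with sgRNA.69, sgRNA.71 and sgRNA-FOXF1, and none was 1.5-fold higher or lower. Among them GADD45GIP1, a large-subunit protein, was at 67.9, 74.2 and 59.5 RPKM, against 52.0 RPKM with sgRNA-NT, and CHCHD1, a small-subunit protein, at 24.4, 25.9 and 17.3 RPKM, against 18.6 RPKM. ICT1, the large-subunit protein also named MRPL58, was at 45.8, 56.4 and 49.0 RPKM, against 39.6 RPKM. These ratios fall inside the range of the members. The 18 compared factors that assemble the ribosome or modify its RNA had medians of 0.36, 0.35 and 0.26, with 0, 1 and 3 higher and none lower. YBEY, a putative RNA endonuclease, was at 6.5, 7.3 and 7.1 RPKM, against 4.7 RPKM with sgRNA-NT.

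The 10 compared mitochondrial translation factors were nearer to all genes, with medians of 0.16, 0.12 and -0.10, 1, 2 and 0 higher and 0, 0 and 1 lower. MRRF, the ribosome recycling factor, was at 2.8, 2.8 and 2.6 RPKM with sgRNA.69, sgRNA.71 and sgRNA-FOXF1, against 1.8 RPKM with sgRNA-NT, while GFM1, an elongation factor, was at 2.7, 2.5 and 1.8 RPKM, against 3.3 RPKM. Of 15 compared mitochondrial tRNA synthetases, with medians of 0.33, 0.32 and 0.25, PARS2 was at 3.1, 2.7 and 3.1 RPKM, against 1.7 RPKM, and IARS2 was at 16.8, 17.9 and 13.3 RPKM, against 26.0 RPKM with sgRNA-NT. The 8 compared genes that copy, transcribe or stabilize mitochondrial DNA and RNA had medians of 0.02, 0.05 and -0.03. Among these, LRPPRC, which binds mitochondrial mRNAs, was at 3.7, 2.7 and 3.3 RPKM, against 5.4 RPKM, and its partner SLIRP was at 19.8, 21.3 and 14.9 RPKM, against 13 RPKM with sgRNA-NT.

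Most mRNAs that these ribosomes translate differed in the opposite direction. The 13 mRNAs of the mitochondrial genome had median log2 ratios of -1.02, -1.54 and -0.77 with sgRNA.69, sgRNA.71 and sgRNA-FOXF1. Of these, 8, 10 and 7 were at least 1.5-fold lower, beside 9.93%, 14.7% and 13.2% of all genes, and 0 were higher. The part of poly(A) selection and RNA quality in these values was not tested. MT-ND4L was at 1073.3, 577.6 and 1326.5 RPKM, against 5249.2 RPKM with sgRNA-NT, and MT-ND5 at 559.0, 287.0 and 829.4 RPKM, against 2382.4 RPKM. MT-ND3 alone was above sgRNA-NT in all 3 libraries. MT-CO1 and MT-CO2 were equal in all 4 libraries, since quantile normalization gives the genes of the top ranks the same values. The nuclear genes of the respiratory chain (73 compared) had medians of 0.37, 0.39 and 0.19, close to the members. Of these genes 7, 9 and 4 were higher (9.59%, 12.3% and 5.48%) and 0 lower. The cytosolic ribosomal proteins (81 compared) had medians of 0.48, 0.55 and 0.25. Of these 16, 33 and 4 were higher (19.8%, 40.7% and 4.94%) and 0, 1 and 0 lower. Among all compared genes 8.18%, 14.0% and 11.6% were higher. With sgRNA-FOXF1 both groups were below the share of all genes, as were the respiratory genes with sgRNA.71. After subtraction of the length bins, the medians were 0.14, 0.17 and 0.02 for cytosolic ribosomal proteins and 0.02, 0.02 and -0.03 for the nuclear respiratory genes, beside the members' 0.07, 0.12 and -0.03. The differences between these groups were not tested.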

How the data were processed

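Poly(A) RNA of 4 libraries, 1 per guide, was sequenced as single reads of 65 bp. The authors used TopHat2 (hg19) for alignment and HTSeq-count for counting, and deposited RPKM values made with GENCODE v25, quantile-normalized and floored at 1. The tool versions were not given in the sources used here, and the methods name Trisure and a stranded TruSeq kit, whereas the sample labels name Trizol, Oligotex and a TruSeq RNA kit. The authors also deposited 3 columns of log2 ratios to sgRNA-NT, which were not used. Depth is unknown, so no counting error is given.

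Log2 ratios were computed without a pseudocount for genes whose mean level reached 2 RPKM, and limma 3.58.1 (R 4.3.3), with its mean-variance trend, was applied to all 7596 of them, with Benjamini-Hochberg adjustment, after it was tested on simulated data. Transcript length, GC content and exon overlap come from canonical transcripts of GENCODE v44 lifted to GRCh37. Alternatives were a pseudocount of 1, centring, other level filters, a 2-fold rule, corrections for length or GC content in 20 bins, limma without the trend, with other filters or with all targeted libraries pooled into a group, and, added after the data were seen, leaving out members that share exon bases and a GC correction of sgRNA-FOXF1 against the guides.

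The members and lists were chosen with earlier results of these data known. Values are given for the 8 members with the highest and the 8 with the lowest mean log2 ratio, the 4 highest and 4 lowest by level with sgRNA-NT, the stalk, exit tunnel, central protuberance and S18 proteins, MRPS12, MRPS30, MRPS36, members furthest from the guides with sgRNA-FOXF1 (3 each way), any member 1.5-fold lower, and up to 3 genes of each other list. Software was pandas 2.3.3, numpy 2.4.6, scipy 1.17.1 and matplotlib 3.10.9 under Python 3.11.15.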

Additional observations from a re-analysis of the deposited data

Results flagged for a closer look

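In 4 members (5.71% of 70, beside 6.71% of all compared genes) both enhancer guides were above sgRNA-NT while sgRNA-FOXF1 was below it. Relative to the mean of the guides, sgRNA-FOXF1 differed by -0.65 for MRPL39, -0.59 for MRPL51, -0.47 for MRPL35 and -0.25 for MRPL36 on the log2 scale. MRPL35 was at 5.9 RPKM with sgRNA-FOXF1, against 7.9 and 8.4 RPKM with sgRNA.69 and sgRNA.71, and at 6.1 RPKM with sgRNA-NT. With 1 library of sgRNA-FOXF1 and 1 of sgRNA-NT the opposite directions themselves were not tested, and limma called none of the 4 differences from the guides. Relative to sgRNA-NT, the log2 ratios with sgRNA-FOXF1 were -0.16, -0.03, -0.05 and -0.10 in the same order of genes.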

How the results depend on the processing

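Of 75 values recomputed under the alternatives, 55 stayed within the tolerance used, 19 moved beyond it and 1 reversed. The tolerance was 1.5 times for a count and 0.065 on the log2 scale for a median, the SD of the medians of sgRNA.69 and sgRNA.71. Many of the 55 were counts of 0 that stayed 0, namely most counts of lower members and all limma counts. A 2-fold rule could not raise a count of lower members from 0, so the 55 overstate stability. Correction for transcript length had the widest effect: the members' medians became 0.066, 0.12 and -0.027 with sgRNA.69, sgRNA.71 and sgRNA-FOXF1, the last of opposite sign, and 2, 8 and 2 members were 1.5-fold higher and 0, 1 and 2 lower. Centring on the median of all genes gave medians of 0.25 with sgRNA.69 and 0.34 with sgRNA.71, and 12 higher members with sgRNA.71. Correction for GC content gave 11 higher members and a median of 0.35 with sgRNA.71. A pseudocount of 1 RPKM left 5 higher members with sgRNA.69, a mean of at least 5 RPKM left 4 with sgRNA-FOXF1, and a 2-fold rule left 0, 2 and 1. With every gene above the floor in a library included, 1 member, MRPL53, was lower with sgRNA.71. The added GC correction moved the median of sgRNA-FOXF1 against the guides to -0.07. Leaving out members that share at least 10% of exon bases on the same strand left 8, 19 and 5 higher of 61. Shares of all genes under these alternatives are not given here, so the counts describe the members only. limma called no member and no other gene under any of its 5 alternatives, each of which rests on the lone sgRNA-NT library. Without either guide no residual degree of freedom remains, so that alternative gives no test; each guide's own counts stand in the report. No paired analysis was possible because the libraries carry no replicate numbers. Whether the members' ratios would recur in further cultures cannot be told from 1 library per guide.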
